A study of Mus musculus with 20 samples.

Results

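The genes described here are 30 genes of Schwann cells and their myelin, taken by symbol from the 78258 genes of the count table. All 30 were found, and all 30 passed the filter on low counts that left 28564 genes for testing. They were measured by mRNA sequencing of lumbar dorsal root ganglia (L4 to L6), which hold the cell bodies of sensory neurons together with satellite glia, Schwann cells along the attached nerve and root, and connective tissue. The 10 mice were all male. The conditional knockout (cKO) mice were Ahr fl/fl with Thy1CRE-ERT2/EYFP: Cre that needs tamoxifen to act, and a yellow fluorescent protein, driven by Thy1, a promoter active in neurons. The control mice were Ahr f/f or f/+, and which of these a given control mouse carried was not used here. Every mouse, control or cKO, received tamoxifen at 100 mg/kg intraperitoneally on 5 days at 17 weeks of age. The sciatic nerve was cut 4 weeks later, and ganglia were taken 1 day after the cut. Each mouse gave 1 contralateral and 1 ipsilateral library, so there were 4 groups of 5 libraries. The mice were H62, H63, H65, H96 and H97 (control) and H61, H64, H95, H99 and H100 (cKO), and values below are listed in this order. The contralateral ganglion came from a mouse with a cut nerve on the other side and is not an uninjured animal.

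Schwann cells wrap axons of the peripheral nerve, and those on large axons build compact myelin from a few abundant membrane proteins and galactolipids. Neuregulin on the axon signals through the receptor pair ErbB2 and ErbB3, and the transcription factors Pou3f1, Pou3f2 and Egr2 drive the myelin genes, with Nab1 and Nab2 as partners of Egr2. After a nerve is cut, Schwann cells beyond the cut lose myelin gene expression and take on a repair state, whereas the ganglion lies on the side of the cut that keeps its cell bodies. In a bulk library, fewer cells of a type and less RNA per cell cannot be told apart.

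The upstream sequences of 4 of the genes are shown because Prx and Cldn19 stand for the sheath genes that varied together between libraries, and Nab1 and Dhh for the genes called higher after nerve transection. Each is the 250 bases before the most upstream RefSeq start of the gene on build GRCm38.p6, 5′ to 3′ on the strand of the gene, with motif matches in capitals.
Prx, chr7:27499074-27499323 +: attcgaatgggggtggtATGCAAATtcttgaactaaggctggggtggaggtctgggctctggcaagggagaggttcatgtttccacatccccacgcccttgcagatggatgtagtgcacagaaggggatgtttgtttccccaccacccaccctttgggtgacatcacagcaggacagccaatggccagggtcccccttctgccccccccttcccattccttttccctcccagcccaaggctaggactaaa
Cldn19, chr4:119255191-119255440 +: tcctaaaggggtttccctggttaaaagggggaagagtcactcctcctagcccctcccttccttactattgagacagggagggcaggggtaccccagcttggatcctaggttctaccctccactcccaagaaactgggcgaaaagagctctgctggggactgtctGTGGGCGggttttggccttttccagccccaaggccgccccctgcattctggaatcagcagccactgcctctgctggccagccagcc
Nab1, chr1:52500449-52500698 -: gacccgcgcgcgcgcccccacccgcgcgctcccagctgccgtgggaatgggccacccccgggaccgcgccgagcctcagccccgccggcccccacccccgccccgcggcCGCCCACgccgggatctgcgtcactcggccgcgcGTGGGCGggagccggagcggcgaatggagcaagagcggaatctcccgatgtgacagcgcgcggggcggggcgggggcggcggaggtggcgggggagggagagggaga
Dhh, chr15:98898541-98898790 -: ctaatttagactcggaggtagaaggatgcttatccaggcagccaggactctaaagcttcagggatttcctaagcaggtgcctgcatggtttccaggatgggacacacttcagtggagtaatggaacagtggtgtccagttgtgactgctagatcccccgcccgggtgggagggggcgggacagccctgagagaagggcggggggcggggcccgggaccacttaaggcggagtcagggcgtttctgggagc
The motifs searched on both strands were the octamer ATGCAAAT bound by POU factors, the EGR core GTGGGCG and the SOX core ACAAAG. The octamer was in 1 of the 23 members that had a window, Prx, and in 1.62% of all 27025 windows. The EGR core was in 4 of the 23 (Cadm4, Cldn19, Egr2 and Nab1) and in 7.04% of all windows, and Nab1 held it on both strands, so one match reads CGCCCAC. The SOX core was in 3 of the 23 (Mag, Gjb1 and Cnp) and in 16.5% of all windows. The window of Dhh held none of these 3 strings. A match is a string in the sequence, not a measured binding site. Mbp, Pmp2, Drp2, Fa2h, Pou3f1, Erbb3 and Shh had no window in the table used.

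Libraries held 76.2 to 118.5 M counts (M, mega), and the members had between 308 counts (the lowest library of Pou3f1) and 124265 counts (the highest of Mbp). At these counts the spread between libraries, 1 per mouse and side, rather than counting error set the precision. Contralaterally the targeted gene, Ahr, was at 24.2 ± 2.10 CPM (counts scaled to a library of 1 M) in control mice and 20.4 ± 0.536 CPM in cKO mice (SD, n = 5). The highest cKO value there (20.99 CPM) lay just under the lowest control value (21.32 CPM), so the ranges did not overlap. Its log2 fold change there was -0.25 with an edgeR adjusted p of 0.103. Ipsilaterally Ahr was at 34.4 ± 2.86 and 31.9 ± 2.94 CPM, with overlapping ranges and a log2 fold change of -0.11 (adjusted p 1), and the floxed exon by itself was not analysed here. The markers of oligodendrocytes, the myelinating cells of the spinal cord, summed to 2.89 to 12.6 CPM per library over the 5 of 6 that were tested. Mog was at most 0.180 CPM in any library and Opalin had at most 2 counts, whereas Mobp reached 9.41 CPM in the ipsilateral library of control mouse H96, which had the highest oligodendrocyte sum. That library also had the highest sheath sum, 4827 CPM. Mbp, Mag, Mal and Cnp are also genes of oligodendrocytes, and the part of these cells in their values was not tested. By contrast, the 19 sheath genes described below summed to 3493 to 4827 CPM. The sensory neuron marker sum was 11530 to 14040 CPM and the satellite glia sum 1458 to 1877 CPM. The skeletal muscle sum ran from 1.97 to 1575 CPM, with the highest value in the contralateral library of cKO mouse H100.

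In control contralateral ganglia, levels per kilobase of merged exon (CPM per kb) spanned more than 2 orders of magnitude. Pmp22, a tetraspan protein of compact myelin, stood highest at 414 CPM per kb. It was followed by S100b, a calcium-binding protein of Schwann cells and other glia, at 292 and by Cd9, a tetraspanin, at 203 CPM per kb. Mbp, which compacts the cytoplasmic faces of the myelin membrane, had 134 CPM per kb, and Cadm4, the Schwann cell adhesion protein of the internode, had 80.5. Prx, the periaxin scaffold of the outer sheath, had 65.2 CPM per kb, Mal, a proteolipid, 57.8, and Cnp, a cytoplasmic myelin protein, 55.3. The lowest were the receptors Adgrg6 (2.40 CPM per kb) and Erbb2 (2.20) and the POU factors Pou3f1 (1.61) and Pou3f2 (1.26). The ranges over the 5 mice overlap for most neighbours in this order, as the plot of levels shows. The lengths are merged exons of GENCODE M21, which may differ from the annotation behind the counts.

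**Figure D1:**
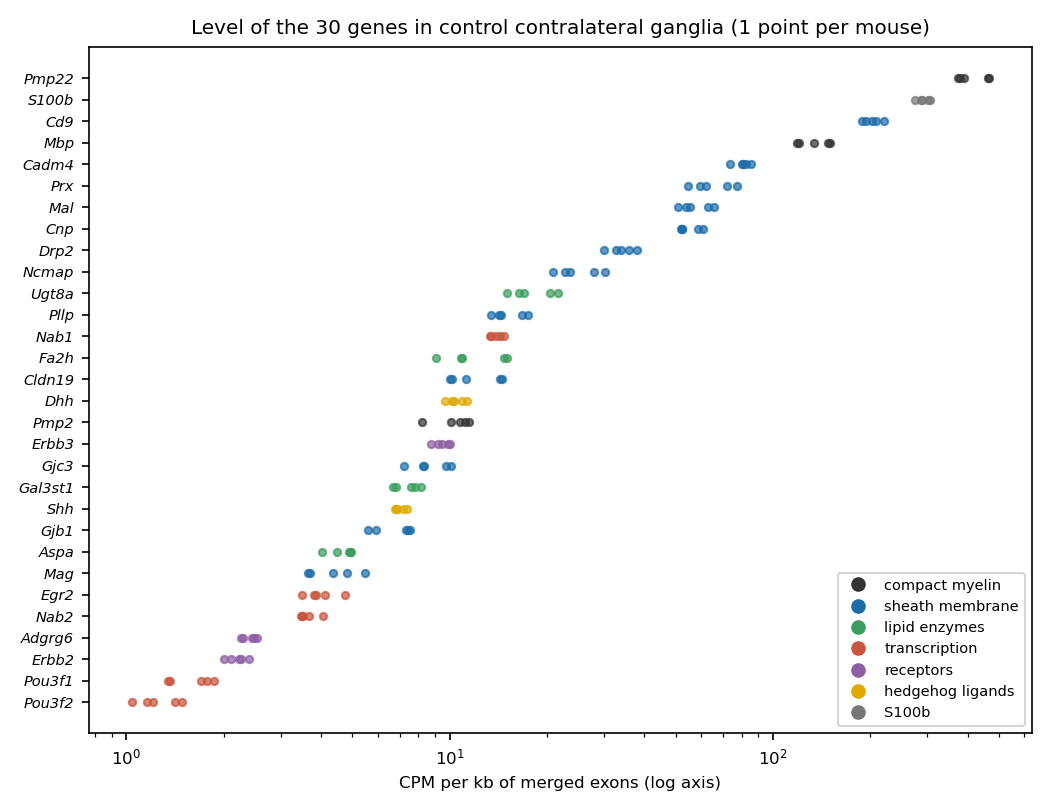
Level of each of the 30 genes in control contralateral ganglia, as CPM per kilobase of merged exon on a log axis, 1 point per mouse and colours for the roles of the genes. Pmp22 and S100b lie highest, at means of 414 and 292 CPM per kb, and Pou3f1 and Pou3f2 lowest, at 1.61 and 1.26.

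The myelin sheath genes varied together from library to library. The sheath genes are 19 of the 30: compact myelin proteins, membrane and junction proteins of the sheath, and enzymes of myelin lipids. Within groups, the SD of log2 CPM had a median of 0.174 over the 30 members and 0.216 over the 19 sheath genes, against 0.0722 over the 11407 tested genes that averaged 10 CPM or more. The same SD ran from 0.188 to 0.646 for fibroblast, 0.351 to 0.525 for macrophage and 0.128 to 1.175 for perineurial markers. It ran from 2.59 to 3.30 for skeletal muscle, 0.0540 to 0.623 for Remak Schwann and 0.170 to 1.058 for oligodendrocyte markers. For satellite glia markers it was 0.0942 to 0.156, and for sensory neuron markers 0.0565 to 0.109. Some markers averaged below 10 CPM, and a wide spread was not particular to the sheath genes. Among the members, Pmp2, a fatty acid-binding protein of compact myelin, varied most (0.458), followed by Mag, the periaxonal adhesion protein (0.338), Fa2h, which hydroxylates myelin fatty acids (0.325), and Gjb1, the connexin 32 gap junction protein (0.313). Nab1 (0.0533), S100b (0.0546) and Cd9 (0.0740) varied least.

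Prx shows the pattern. In control contralateral libraries Prx had 305, 433.5, 331, 346 and 404 CPM, and in control ipsilateral libraries 367, 347, 276, 467 and 356 CPM. In cKO contralateral libraries it had 379, 447, 442, 335 and 277 CPM, and in cKO ipsilateral libraries 345, 383, 401, 378.5 and 276 CPM. The ranges of the 4 groups overlap, and within a group the highest library was 1.42 to 1.69 times the lowest. The deviation of a gene from its group mean had the same sign as that of Prx in a median of 17 of 20 libraries (11 to 19) over the 18 other sheath genes, and in 10 of 20 over all genes with at least 10 CPM. Cldn19, the claudin of the Schwann cell tight junctions, and Drp2, the partner of periaxin in the outer membrane, matched Prx in 19 libraries. Cd9 matched in 13 and Aspa, an enzyme that frees acetate from N-acetylaspartate, in 11. Outside the sheath, Egr2, Dhh and Adgrg6 matched in 15, Erbb3 and Pou3f1 in 14, Pou3f2 and S100b in 13, Shh in 12, Nab1 and Erbb2 in 11 and Nab2 in 10. These counts describe libraries and carry no test.

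**Figure D2:**
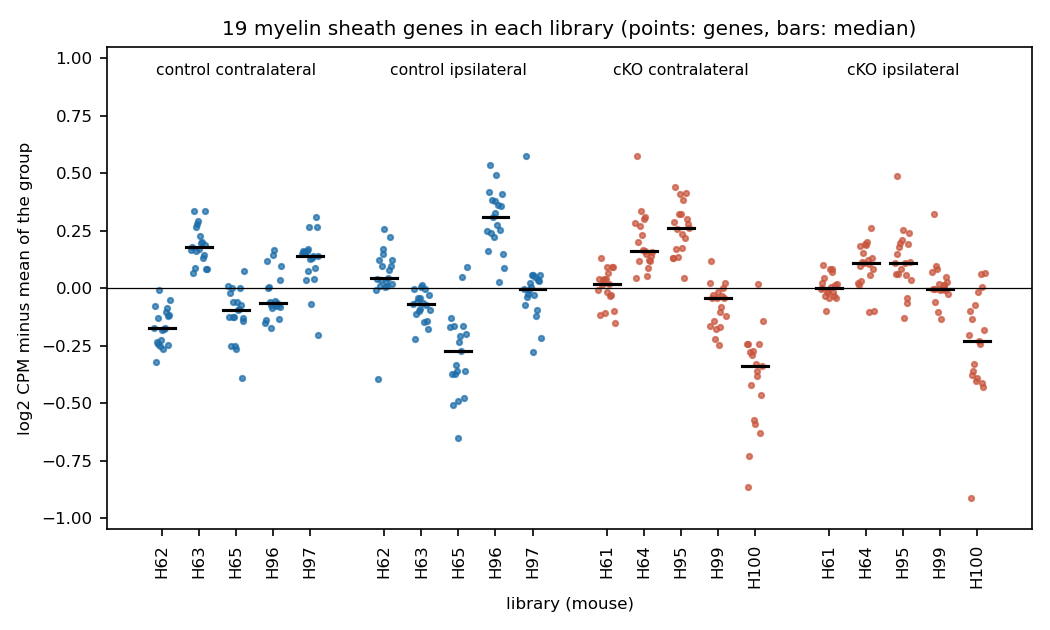
Each of the 19 sheath genes in each library, as log2 CPM minus the mean of its group of 5, with 1 point per gene and a bar at the median. In some libraries the points lie mostly on 1 side of 0. They lie below it in the control ipsilateral library of H65 and in both libraries of cKO mouse H100. They lie above it in the control ipsilateral library of H96. In others, such as the cKO ipsilateral library of H99, they lie on both sides.

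A few libraries held most of the extremes. In control contralateral ganglia H63 was the highest of 5 for 15 of the 19 sheath genes and H62 the lowest for 11. In control ipsilateral ganglia H96 was the highest for 16 and H65 the lowest for 15. In cKO ganglia H95 was the highest for 13 on the contralateral and 10 on the ipsilateral side, and H100 the lowest for 17 and 14. H100 contralateral was also the library with 1575 CPM of skeletal muscle markers, and the part of other tissue in the spread was not tested. The sheath sum ran from 3719 to 4615 CPM in control contralateral, 3627 to 4827 in control ipsilateral, 3493 to 4728 in cKO contralateral and 3508 to 4178 CPM in cKO ipsilateral libraries, and these ranges overlap.

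Prx was also set against lists of markers of other cell types across the 10 mice of a side, after centring on genotype. Of 10 such relations (5 lists on 2 sides, exact permutation within genotype, two-sided), none passed after Benjamini-Hochberg adjustment. By Pearson's r the highest was with the Remak Schwann list (non-myelinating Schwann cells) on the ipsilateral side, with r of 0.750 (exact permutation p 0.0338, adjusted 0.338) and Spearman's rho of 0.467 (exact permutation p 0.221, adjusted 0.737). Without the 2 libraries farthest from the median of Prx, r was 0.787 (exact permutation p 0.151). On the contralateral side the same list gave r of -0.216. For fibroblasts r was 0.227 contralaterally and -0.214 ipsilaterally, for perineurial cells -0.0651 and -0.0432, for satellite glia 0.498 and 0.111, and for sensory neurons 0.101 and -0.502. By Spearman's rho the order differed, with -0.612 for sensory neurons ipsilaterally (exact permutation p 0.0703, adjusted 0.703) and 0.515 for satellite glia contralaterally (exact permutation p 0.194, adjusted 0.737).

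The effect of nerve transection was read from ipsilateral against contralateral ganglia in each genotype. In control mice 5 of the 30 members were called (edgeR adjusted p under 0.05), where 29.9% of all tested genes were called. All 5 were higher on the lesioned side (background 13.8% higher and 16% lower). They were the hedgehog ligands Shh and Dhh, the co-repressor Nab1, and the receptors Adgrg6 and Erbb2. In cKO mice 5 members were also called, against a background of 31.3%. Of these, Shh, Dhh and Nab1 were higher (background 16.2%), and Cd9 and S100b lower (background 15.1%). The cells in which the called members changed were not measured in either genotype. Of 5 satellite glia markers, 2 were called higher in each genotype, and the part of those cells was not tested. The median log2 fold change of the members was 0.069 in control and -0.011 in cKO mice, and that of all tested genes -0.0047 and -0.030. The ranges of the 2 sides did not overlap for 2 members in control mice (Shh and Nab1, background 23.6%) and 2 in cKO mice (Shh and Dhh, background 20.2%). The 5 calls are 16.7% of the members in each genotype, which is below the share of all genes in these fits. The difference was not tested. These calls come from the main fit, which has no term for mouse, although the sides of a mouse are paired. With mouse as a block, 6 members were called in each genotype, 5 higher and 1 lower. That fit called 8559 genes in all in control and 9015 in cKO mice.

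**Figure D3:**
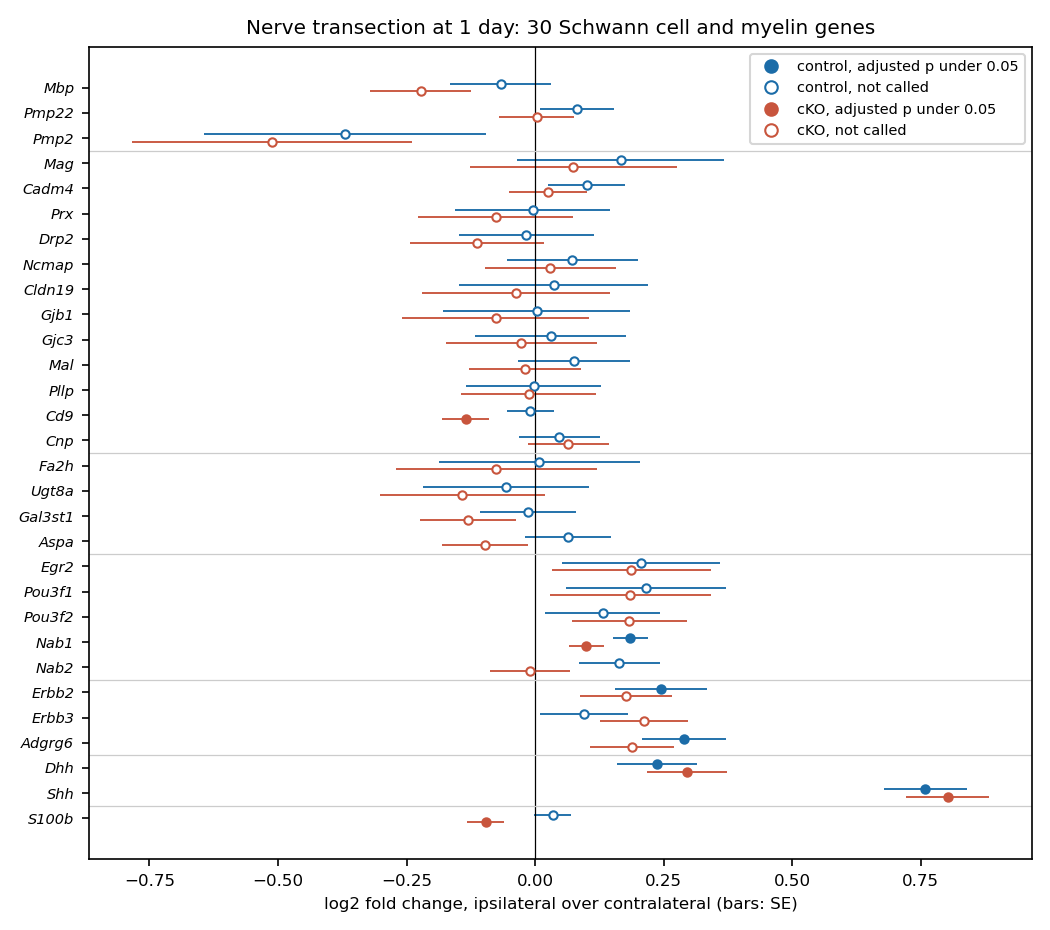
Log2 fold change of ipsilateral over contralateral ganglia for the 30 genes in control and cKO mice, with bars for the SE and filled points for an edgeR adjusted p under 0.05. Shh lies apart at 0.76 and 0.80, and most sheath genes in the upper part lie near 0, apart from Pmp2 at -0.37 and -0.51.

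Among the ligands, Shh had the log2 fold change farthest from 0 of all 30 members in both genotypes. Shh encodes Sonic hedgehog, which sensory neurons are known to make, and the cells it came from were not measured here. In control mice Shh had 19.5, 20.4, 19.3, 19.4 and 21.0 CPM contralaterally and 33.0, 35.8, 33.7, 32.7 and 33.6 CPM ipsilaterally. In cKO mice it had 19.4, 17.9, 14.5, 23.4 and 18.2 CPM contralaterally and 32.9, 32.3, 35.4, 32.7 and 29.6 CPM ipsilaterally. In both genotypes every ipsilateral library was above every contralateral one. The log2 fold change was 0.76 (SE 0.0806, edgeR adjusted p 3.36e-07) in control and 0.80 (SE 0.0807, adjusted p 1.36e-07) in cKO mice, or 1.69-fold and 1.74-fold, and it was called under all 21 alternative settings in both genotypes.

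Dhh encodes Desert hedgehog, the ligand that Schwann cells send to the perineurium. In control mice it had 42.5, 49.8, 45.5, 48.2 and 44.9 CPM contralaterally and 57.7, 53.3, 47.6, 61.6 and 51.8 CPM ipsilaterally, so the sides overlap. In cKO mice it had 41.3, 43.3, 45.9, 43.5 and 32.4 CPM contralaterally and 52.8, 51.4, 52.7, 49.5 and 47.0 CPM ipsilaterally, without overlap. Dhh was higher ipsilaterally in 5 of 5 mice of each genotype. The log2 fold change was 0.24 (SE 0.0779, edgeR adjusted p 0.0256) in control and 0.30 (SE 0.0780, adjusted p 0.00625) in cKO mice. The call in control mice was lost without H62, without H96 and on the FPKM scale (adjusted p 7.40e-04 to 0.134 over all settings).

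**Figure D4:**
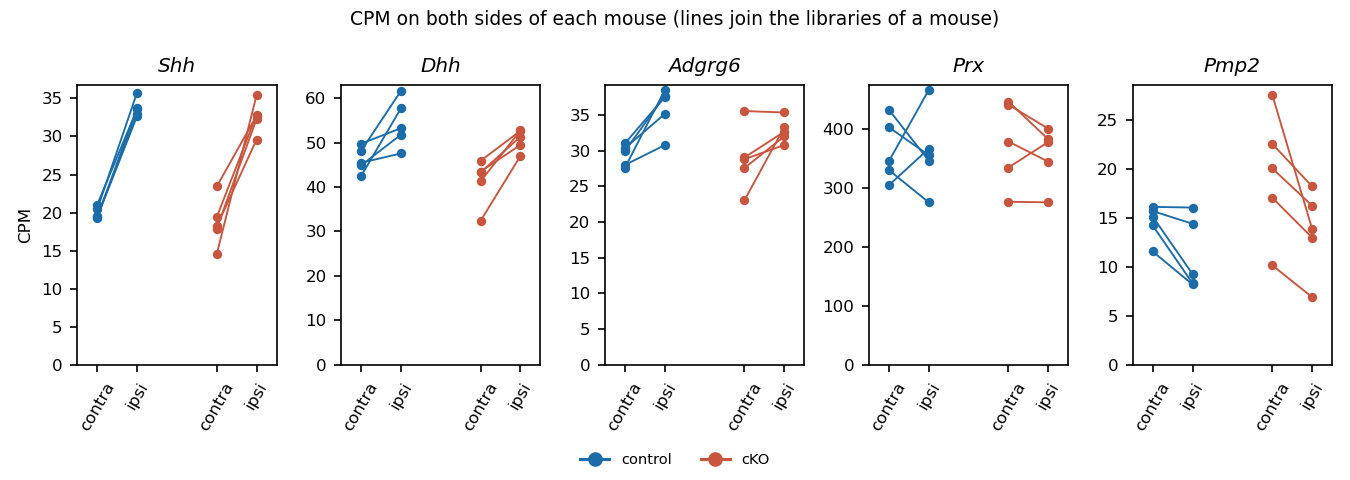
CPM of Shh, Dhh, Adgrg6, Prx and Pmp2 on both sides of each mouse, with a line joining the libraries of a mouse and axes starting at 0. Shh and Dhh are higher ipsilaterally in 10 mice of 10, Pmp2 is lower in all 10, and the lines of Prx cross.

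Among the receptors, Adgrg6 (Gpr126), the adhesion receptor that Schwann cells need to start myelination, was called in control mice. It had 27.6, 31.0, 28.0, 29.96 and 30.3 CPM contralaterally and 38.5, 37.5, 30.8, 37.6 and 35.1 CPM ipsilaterally. Every control mouse was higher on the lesioned side, by a log2 fold change of 0.29 (SE 0.0816, edgeR adjusted p 0.00993), although the lowest ipsilateral value lay within the contralateral range. In cKO mice the values were 28.8, 29.0, 35.5, 27.6 and 23.1 CPM against 30.8, 32.6, 35.3, 32.0 and 33.3 CPM. The log2 fold change there was 0.19 (SE 0.0816, adjusted p 0.0881), and 0.20 (adjusted p 0.0345) with mouse as a block. The call in control mice was lost without H62 (adjusted p 0.0648).

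Erbb2, the signalling partner of the neuregulin receptor, was higher in 5 of 5 control mice with a log2 fold change of 0.25 (SE 0.0895, edgeR adjusted p 0.0427), from a mean of 11.5 ± 0.789 to 13.6 ± 1.17 CPM (SD, n = 5). This call held under 11 of 21 alternative settings, and was lost without any 1 of the 5 control mice and without H99 or H100 (adjusted p 0.00754 to 0.129 over all settings). It was also lost on the FPKM scale and with a perineurial and fibroblast score as a covariate. In cKO mice the log2 fold change of Erbb2 was 0.18 (adjusted p 0.145). Erbb3, which binds neuregulin, had log2 fold changes of 0.10 (adjusted p 0.458) in control and 0.21 (adjusted p 0.0660) in cKO mice. With mouse as a block the latter was 0.22, with an adjusted p of 0.0492.

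Of the 5 transcription factors and co-repressors, only Nab1 was called. It had 54.7, 56.9, 60.6, 54.9 and 58.8 CPM contralaterally and 65.1, 65.4, 62.95, 64.7 and 67.0 CPM ipsilaterally in control mice, with no overlap. In cKO mice it had 57.1, 59.95, 63.98, 61.8 and 57.9 CPM against 63.4, 63.7, 66.1, 66.7 and 62.4 CPM. The log2 fold change was 0.19 (SE 0.0347, edgeR adjusted p 2.88e-04) in control and 0.10 (SE 0.0346, adjusted p 0.0320) in cKO mice, and 5 of 5 mice were higher in each. Nab1 was called under all 21 alternatives in control and under 15 of 21 in cKO mice, where leaving out H61, H64 or H100 ended the call. In cKO mice the call was also lost on the FPKM scale and with a perineurial and fibroblast score as a covariate. Nab2, its paralog, had log2 fold changes of 0.16 (adjusted p 0.130) and -0.0099 (adjusted p 0.946). Egr2 (Krox20), the main activator of myelin genes, had 0.21 (95% interval -0.12 to 0.53) and 0.19 (-0.14 to 0.51). Pou3f1 (Oct6) had 0.22 and 0.19, and Pou3f2 (Brn2) 0.13 and 0.18, with no call in either genotype.

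In the fit without a block, none of the 19 sheath genes was called in control mice, and 1, Cd9, was called in cKO mice. With mouse as a block, Pmp2 was called lower in both genotypes, as given below, and Cd9 in neither. Cd9 had 417, 443, 441, 404 and 433 CPM contralaterally and 409, 362, 378, 393 and 407 CPM ipsilaterally in cKO mice. It was lower in 5 of 5 of these mice, and its log2 fold change of -0.14 (SE 0.0454, edgeR adjusted p 0.0276) became an adjusted p of 0.0591 with mouse as a block and was lost without H64 or H95. In control mice the log2 fold change of Cd9 was -0.0093 (95% interval -0.10 to 0.09). S100b in cKO mice had 467, 490, 446, 446 and 453 CPM contralaterally and 456, 416, 435, 433 and 413 CPM ipsilaterally. Its log2 fold change of -0.10 (SE 0.0359, adjusted p 0.0466) was called under 8 of 21 alternatives, was lost when any mouse other than H61 or H62 was left out, and had an adjusted p of 0.0534 with the block. In the same comparison of cKO mice the log2 fold change was below 0 for 7 of 8 fibroblast markers (median -0.65), 9 of 11 sensory neuron, 5 of 5 skeletal muscle (median -3.39), 3 of 5 oligodendrocyte, 3 of 5 satellite glia, 3 of 8 macrophage, 3 of 6 perineurial and 1 of 6 Remak Schwann markers. In control mice it was below 0 for 0 of 8 fibroblast, 7 of 11 sensory neuron, 1 of 5 skeletal muscle, 2 of 5 oligodendrocyte, 0 of 5 satellite glia, 0 of 8 macrophage, 1 of 6 perineurial and 3 of 6 Remak Schwann markers. With the perineurial and fibroblast score of each library as a covariate, Cd9 was at -0.13 (edgeR adjusted p 0.0444) and S100b at -0.10 (adjusted p 0.0358). The same covariate ended the calls of Erbb2 in control and Nab1 in cKO mice, and added a call of Erbb2 in cKO mice. The part of the other markers in these values was not tested.

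Pmp2 was lower on the lesioned side in 5 of 5 control and 5 of 5 cKO mice. Control mice had 11.6, 15.2, 14.2, 15.7 and 16.1 CPM contralaterally and 8.21, 9.26, 8.32, 14.4 and 16.1 CPM ipsilaterally. In cKO mice it had 17.1, 27.6, 22.6, 20.1 and 10.2 CPM contralaterally and 13.0, 13.9, 18.2, 16.3 and 6.91 CPM ipsilaterally. The ranges of the sides overlap in both genotypes. In control mice the log2 difference between the sides was smallest in H96 (-0.12) and H97 (-0.0063), against -0.50 to -0.77 in H62, H63 and H65. The log2 fold change was -0.37 (SE 0.274, edgeR adjusted p 0.356) in control and -0.51 (SE 0.272, adjusted p 0.172) in cKO mice without a block. With mouse as a block it was -0.42 (adjusted p 0.0284) and -0.51 (adjusted p 0.00969), so Pmp2 was called in both genotypes only in that fit of the 21 alternatives.

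The other abundant sheath genes were not called, and their intervals bound the change. Mbp went from 1137 ± 126 to 1085 ± 120 CPM in control mice (SD, n = 5), a log2 fold change of -0.07 (95% interval -0.27 to 0.14). In cKO mice it went from 1209 ± 181 to 1036 ± 83.7 CPM, a log2 fold change of -0.22 (-0.43 to -0.02; edgeR adjusted p 0.0937). Pmp22 had 0.08 (-0.07 to 0.23) in control and 0.0030 (-0.15 to 0.15) in cKO mice. Cnp had 0.05 (-0.12 to 0.21) and 0.06 (-0.10 to 0.23). For Prx the interval was wider, at -0.32 to 0.31 in control and -0.39 to 0.24 in cKO mice. Mag, Gjb1 and Fa2h had SEs of 0.183 to 0.202 in both genotypes, so a change of the size seen for Dhh would lie within their intervals. The lipid enzymes Ugt8a, which makes galactosylceramide, and Gal3st1, which sulfates it, had log2 fold changes of -0.06 and -0.01 in control and -0.14 and -0.13 in cKO mice.

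The near-zero means hid opposite differences in single mice. The 19 sheath genes were higher ipsilaterally for 18 genes in control mice H62 and H96, and for 0, 3 and 2 genes in control mice H63, H65 and H97. In cKO mice they were higher for 6, 4, 0, 12 and 13 genes in H61, H64, H95, H99 and H100. Over all 30 members the median difference of a mouse lay between -0.13 and 0.35 in control mice and between -0.18 and 0.15 in cKO mice. Shh stood apart from this: its difference was 0.67 to 0.81 in the 5 control mice and 0.48 to 1.29 in the 5 cKO mice. Dhh was above 0 in all 10 mice, including those in which most sheath genes were lower on the lesioned side.

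**Figure D5:**
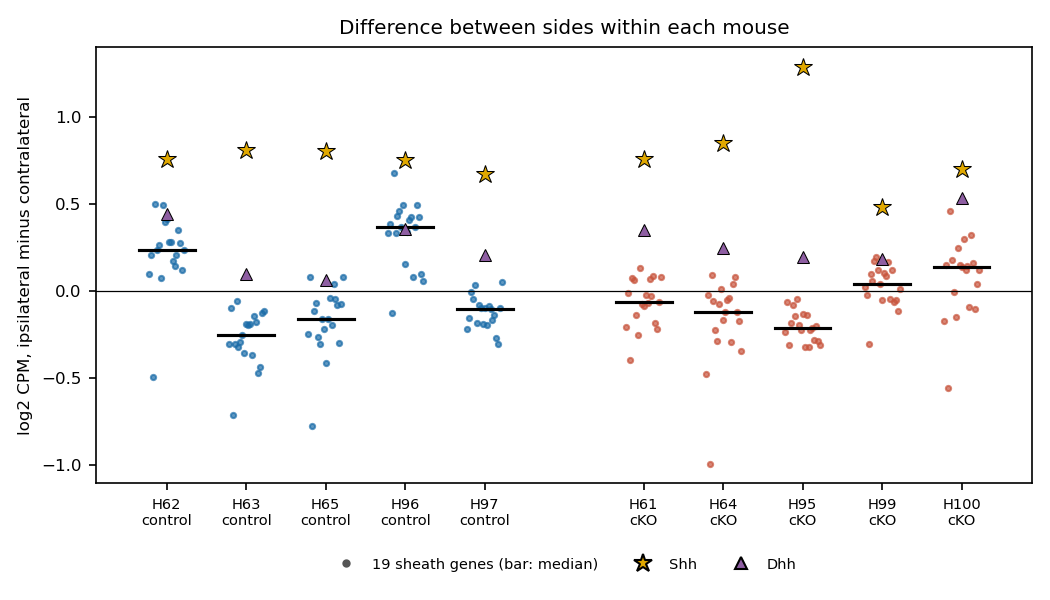
Difference between the sides of each mouse in log2 CPM, ipsilateral minus contralateral, for the 19 sheath genes (points, with a bar at the median), Shh (stars) and Dhh (triangles). Of the 19 sheath genes, 18 lie above 0 in control mice H62 and H96, and 0 in control mouse H63 and cKO mouse H95, whereas Shh lies at 0.48 or higher in every mouse.

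Because libraries shared a common level of the sheath genes, the fit was repeated with the log2 CPM of Prx as a covariate, a choice made after the data were seen. Prx itself then has no value, and 29 members remain. Since Prx is itself a sheath gene, higher and lower in this fit mean relative to Prx. Without the covariate, the log2 fold change of Prx was -0.0044 in control and -0.08 in cKO mice, neither called. In control mice 7 were called, all higher (29.9% of all genes were called, 13.9% higher and 16% lower), and in cKO mice 8, of which 6 were higher and 2 lower (31.6% called, 16.4% higher and 15.3% lower). The added calls in control mice were Cadm4 (log2 fold change 0.10, edgeR adjusted p 0.0178) and Mal (0.08, adjusted p 0.0309). In cKO mice they were Mbp, which was lower (-0.17, adjusted p 0.00220), and Mag (0.19, adjusted p 0.0431), Erbb3 (0.25, adjusted p 0.00421) and Adgrg6 (0.22, adjusted p 0.00664), which were higher, while S100b was no longer called (adjusted p 0.0561). Without the covariate Mag was at 0.07 in cKO mice (edgeR adjusted p 0.829). The calls of Cadm4, Mal, Mbp and Mag came only in this 1 of the 21 alternatives. Dhh was called in both genotypes (adjusted p 7.40e-04 and 2.69e-05).

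The effect of the cKO was asked on each side. On the contralateral side none of the 30 members was called with edgeR (background 0.0735%). DESeq2 called 1 member, Nab2, and 1030 genes in all. In the edgeR fit 4 members had an unadjusted p under 0.05 (5006 of 28564 over all tested genes). The 4 were Nab2 (log2 fold change 0.26, 95% interval 0.09 to 0.42, adjusted p 0.121), Erbb3 (-0.26, -0.44 to -0.08, adjusted p 0.141), S100b (0.09, 0.01 to 0.16, adjusted p 0.224) and Nab1 (0.07, adjusted p 0.282). Control libraries had 10.4, 10.3, 10.2, 11.9 and 10.8 CPM of Nab2 and cKO libraries 11.8, 13.8, 13.9, 11.2 and 13.3 CPM, so the genotypes overlap. For Erbb3 the control libraries had 52.8, 59.4, 55.3, 57.0 and 60.1 CPM and the cKO libraries 48.6, 48.4, 54.5, 49.7 and 36.4 CPM. The lowest control value of Erbb3 lay below only 1 cKO value, that of H95. The median log2 fold change was -0.0031 over the members and -0.013 over all tested genes. Prx was at 0.05 (-0.27 to 0.37), Mbp at 0.09 (-0.12 to 0.29) and Pmp22 at 0.0095 (-0.14 to 0.16).

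On the ipsilateral side no member was called with edgeR or with DESeq2 (background 0.007%), and 1, Aspa, had an unadjusted p under 0.05 (-0.18, 95% interval -0.35 to -0.0042), against 674 of 28564 over all tested genes. The log2 fold change was below 0 for 28 of the 30 members, with a median of -0.07. Over all tested genes 14246 of 28564 were below 0, with a median of 0.0002. Of the markers of other cells, 5 of 5 for satellite glia, 9 of 11 for sensory neurons, 6 of 8 for macrophages, 4 of 5 for oligodendrocytes and 5 of 5 for skeletal muscle were below 0 there. It was 3 of 6 for Remak Schwann cells, 4 of 8 for fibroblasts and 2 of 6 for perineurial cells. The highest and lowest values were 0.28 for Pmp2 (95% interval -0.30 to 0.86) and -0.31 for Egr2 (-0.64 to 0.01). The ranges of the genotypes overlapped for every member on both sides (background 1.52% contralaterally and 0.599% ipsilaterally without overlap).

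Whether the response to transection differed between genotypes was tested as the interaction. No member was called with edgeR or DESeq2, and neither was any other gene with edgeR (0% of 28564; 2799 genes at an unadjusted p under 0.05, 11 called with DESeq2, and 43 called with edgeR without H99). Of the members 1, S100b, had an unadjusted p under 0.05 (-0.13, 95% interval -0.24 to -0.02, adjusted p 0.485). For Shh the difference between the responses was 0.04 (-0.19 to 0.28), and for Dhh 0.06 (-0.17 to 0.29). For Adgrg6 it was -0.10 (-0.34 to 0.14). For Erbb2 it was -0.07 (-0.33 to 0.19) and for Cd9 -0.13 (-0.26 to 0.0082). These intervals do not show that the genotypes responded alike.

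Other genes of the pathways were read from lists of known members, with the injury calls of control and then cKO mice. Of all tested genes, 13.8% were called higher and 16% lower in control mice, and 16.2% higher and 15.1% lower in cKO mice. Of 12 tested genes of neuregulin and ErbB signalling, 2 were called higher and 5 lower in control mice, and 1 higher and 4 lower in cKO mice (list medians -0.05 and -0.09). The ligand Nrg1, the axonal signal for myelination, had log2 fold changes of -0.36 and -0.32 (edgeR adjusted p 6.61e-05 and 2.49e-04). Nrg2 had -0.66 and -0.50 and Nrg4 -0.39 and -0.39, all called, and Grb2, the adaptor that couples ErbB receptors to Ras, had 0.25 and 0.28, both called. Erbb2 in control mice differed in sign from these called ligands. Of 13 tested hedgehog pathway genes, 0 were called higher and 2 lower in each genotype (medians 0.11 and -0.30), which is 15.4% of the list. Boc, a hedgehog co-receptor, had -0.29 and -0.52, both called. Its relative Cdon had 0.14 (adjusted p 0.718) and -0.69 (called), and Disp1, which releases the ligand from the cell, had -0.16 (called) and -0.06 (adjusted p 0.434). In cKO mice the fibroblast marker sum was 948 to 2316 CPM contralaterally and 865 to 1588 CPM ipsilaterally, and its part in these values was not tested.

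Of 16 genes of axon and glia contact, 2 were called higher and 3 lower in control mice and 2 higher and 1 lower in cKO mice (medians -0.03 and 0.06). These are 31.3% and 18.8% of the list, where 29.9% and 31.3% of all genes were called, so the list was near or below the background. Lgi4, a protein secreted by Schwann cells that is needed for myelination, was higher with log2 fold changes of 0.35 and 0.40 (edgeR adjusted p 0.00396 and 0.00150). Cadm2, of the same adhesion family as Cadm4, was lower with -0.41 and -0.30, both called. Cadm1 had -0.23 (called) and -0.09 (adjusted p 0.154), and Cntn2, an axonal and glial adhesion protein beside the nodes, 0.12 (adjusted p 0.312) and 0.30 (called). Another list held 14 tested regulators of transcription in Schwann cells: transcription factors, a receptor and histone deacetylases. Of these, 5 were called higher and 1 lower in control mice, and 4 higher and 2 lower in cKO mice. That is 42.9% of the list in each (medians 0.24 and 0.10). Whether this differs from the background was not tested. They include Jun, which is also induced in neurons after axon injury, with 1.51 and 1.70, Egr3 with 0.64 and 0.77, Tead1 with 0.46 and 0.35, and Id4 with -0.29 and -0.33, all called in both genotypes. Jun was also the 1 listed gene called between genotypes, on the contralateral side, where it averaged 103 CPM in control mice and 89.2 CPM in cKO mice (edgeR adjusted p 0.0278).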

How the data were processed

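The authors' deposited exonic counts are whole-number counts per gene, and the deposited FPKM table was used only for alternatives, since its values were scaled by the authors to a length per gene. Per the submitters' processing notes, HISAT2 and Picard and the builds mm10 and mm39 were used, with no role given. The counting program, its annotation and its strand setting are not given in the sources used here. Libraries came from a stranded mRNA kit, per the labels' protocols. One label field names a spinal cord injury, and the protocol text on sciatic transection was followed. For a title with a shortened mouse number, the name of the library was followed.

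Symbols came from GENCODE M21 (51487 of 78258 identifiers, 98.1% of counts). Counts were fitted in R 4.3.3 with edgeR 4.0.16 (TMM, filterByExpr with a minimum count of 10, robust quasi-likelihood F-test) over all 20 libraries with a mean per group. P-values were adjusted by Benjamini-Hochberg over 28564 genes and called under 0.05. CPM are TMM-normalised, log2 CPM has a prior count of 2, and 95% intervals come from the SE and the fit's degrees of freedom. Replicate libraries differed beyond counting error (chi-square per degree of freedom 5.31 to 58.3 over 40 pairs). On simulated counts for injury in control mice (28235 genes), 38.8% of log2 changes of 0.25, 74.6% of 0.5 and 93.9% of 1 were called. There 67, 67 and 66 random genes were changed and libraries were drawn independently, whereas 8540 genes were called in the data. The sheath genes also spread more than most genes (median SD 0.216 against 0.0722) and varied together. These shares are therefore not recovery rates for the members.

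The sides of a mouse are paired because they come from the same animal, per the labels. Deviations from group means correlated across genes with a median r of 0.186 (-0.0546 to 0.361), above 0.1 in 7 of 10 mice. Alternatives were DESeq2 1.42.0, limma 3.58.1 (voom with mouse as a random effect, and log2 FPKM with a pseudocount of 1 or 0.1), RLE size factors, other filters, the mouse block, a perineurial and fibroblast score, only the libraries compared, and leaving out each mouse. The members, lists and tests were chosen with earlier results of these data known. Beyond the members and Ahr, up to 4 genes per pathway list with the largest called injury change and a mean of at least 1 CPM were named, and any listed gene called between genotypes. Artn and Ucn2 were named for their low means.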

Additional observations from a re-analysis of the deposited data

How the results depend on the processing

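The injury count of control mice (5 called) was 3 with log2(FPKM + 1) and 3 with log2(FPKM + 0.1), and 2 to 5 when a mouse was left out, with 2 without H62 and 3 without H96. It was 4 with the perineurial and fibroblast score as a covariate. All genes called in control mice numbered 8540 in the main fit. They were 8664 and 8691 with the 2 FPKM fits and 8014 with the score. Without H62 and without H96 they were 7704 and 6910. The count of cKO mice (5 called) was 3 without the filter, 3 with only the libraries compared and 8 with Prx as a covariate, and 2 to 6 when a mouse was left out, with 2 without H64 and 3 without H100. All genes called in cKO mice numbered 8939 in the main fit. They were 7467 without the filter, 7144 with only the libraries compared and 9030 with Prx. Without H64 and without H100 they were 7151 and 7600. The contralateral genotype count was 1 with DESeq2 and 0 to 1 when a mouse was left out (1 without H99, Nab2). Over all genes that comparison had 21 calls, against 1030 with DESeq2 and 3326 without H99, so the 1 member came with a far larger background. The ipsilateral and interaction counts stayed between 0 and 0 when a mouse was left out. With mouse as a replicate block the injury counts were 6 (5 higher, 1 lower) in control and 6 (5 higher, 1 lower) in cKO mice, and 0 for the interaction; the block changed no member's call other than those of Pmp2, Adgrg6, Erbb3, Cd9 and S100b given above. The block gives no value for the genotype comparisons, which lie between mice, and the fit of only the libraries compared none for the interaction. The cause of these shifts was not tested.

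Without the 2 libraries farthest from the median of Prx, contralateral r was 0.292 (fibroblast), 0.148 (perineurial), 0.0275 (Remak Schwann), 0.493 (satellite glia) and 0.175 (sensory neuron). Ipsilaterally it was 0.114, -0.268, 0.787, 0.520 and -0.269 for the same lists. Leaving out each mouse gave contralateral r of -0.0102 to 0.454 (fibroblast), -0.212 to 0.277 (perineurial), -0.485 to 0.0359 (Remak Schwann), 0.329 to 0.736 (satellite glia) and -0.136 to 0.335 (sensory neuron). Ipsilaterally it gave -0.539 to 0.431, -0.664 to 0.447, 0.534 to 0.867, -0.307 to 0.623 and -0.614 to -0.362 for the same lists.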

Other observations

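Other lists of Schwann cell genes, outside the 30, are given by their counts of calls between the sides, where 29.9% of all genes were called in control and 31.3% in cKO mice; the lists were not tested against this background. Of 11 tested genes of the repair Schwann list, 5 were called higher and 1 lower in control mice and 6 higher and 0 lower in cKO mice (medians 0.47 and 0.27). The higher calls include Artn in control mice, at means of only 0.182 CPM contralaterally and 0.412 CPM ipsilaterally. They also include Ucn2 in cKO mice, at 0.0338 and 0.252 CPM. Gfap, an intermediate filament of repair and non-myelinating Schwann cells and of reactive satellite glia, had log2 fold changes of 2.38 and 2.22 (edgeR adjusted p 2.41e-04 and 6.04e-04), from a mean of 1.27 CPM in control contralateral to 6.74 CPM in control ipsilateral libraries. The satellite glia list had 2 of 5 genes called higher in each genotype; its part in the change of Gfap was not tested. Bdnf, a neurotrophin that sensory neurons also make, had 1.11 and 1.30, both called. Runx2 had 0.12 (adjusted p 0.386) and 0.30 (called). Of the 6 Remak Schwann genes, 2 were called higher and 1 lower in control mice and 4 higher and 0 lower in cKO mice (medians 0.05 and 0.24). The cells that the RNA of the repair and Remak Schwann lists came from were not measured, so these counts are of the whole ganglion. Jun, Sox2, Ngfr, Gfap and Gli1 each belong to more than one of the lists, so the counts overlap.

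Within the 120 groups of 5 values of the 30 genes, no value stood apart by Dixon's test at a critical value of 0.71, where chance gives about 6.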
